A study of Mus musculus with 12 samples.

Results

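Livers of 12 male C57Bl/6J mice were compared by whether a liver weight had been recorded for the mouse. The study's supplement gives a liver weight for 7 of the 12 sequenced mice and none for the other 5, and these are called the recorded and the unrecorded mice here. All 12 mice were offspring (F1) examined at 16 weeks of age. Their mothers ate either a vitamin D deficient diet (VDD), supplemented with calcium, or a vitamin D sufficient diet (VDS) before mating and through pregnancy, every mother ate the sufficient diet after delivery, and all offspring were weaned onto it. The recorded mice were 3 of the 6 VDD-F1 offspring (VDD4, VDD5 and VDD6) and 4 of the 6 VDS-F1 offspring (VDS3 to VDS6). The unrecorded mice were VDD1, VDD2, VDD3, VDS1 and VDS2. No treatment separated the recorded from the unrecorded mice in the descriptions, and what else set them apart is not given in the sources used here. RNA came from the left lateral lobe, with 1 library per mouse, and the dam of each mouse was not stated. The p-values therefore measure the spread between these mice.

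Most of the liver's mass is hepatocytes, which carry out drug and steroid metabolism, make fatty acids and cholesterol, and secrete most plasma proteins. The nuclear receptors Pxr and Car switch on cytochrome P450 enzymes, transferases and transporters that clear foreign compounds and steroids. Lipogenic enzymes follow feeding and insulin, and acute phase proteins follow inflammatory signals. Hepatocytes near the portal vein and near the central vein of the liver lobule express different enzymes.

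The libraries held 14275793 to 20815066 fragments counted on genes, and log2 CPM, counts scaled to a common library total, of any pair of mice correlated at r of 0.9256 to 0.9868 across genes, which are not independent units. The hepatocyte marker Alb was at 53790 to 81760 CPM and Apob at 11030 to 14340, whereas the pancreatic marker Pnlip reached 3 counts at most and the fat cell markers Lep and Retn had none. None of 12 library measures differed between recorded and unrecorded mice within the diets. The smallest p was that of fragments mapping to several places, which took 7.40% ± 0.752 (SD, n = 7) of fragments in recorded and 8.09% ± 0.323 (SD, n = 5) in unrecorded mice (p = 0.12 and 0.943 after Benjamini-Hochberg adjustment over 12 measures, exact 2-sided permutation test within diet). A pair of libraries stood apart. VDS6 had 11.1% of fragments outside genes, against at most 4.94% in the others, and VDD2 differed from the other unrecorded VDD-F1 mice in many of the genes below.

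With maternal diet as a covariate, 8 of 23 Pxr and Car targets were higher in recorded than in unrecorded mice, and 10 of 22 lipogenic, 7 of 21 acute phase, 10 of 28 interferon-stimulated and 4 of 8 blood cell genes were lower. Of 12453 genes whose mean count reached 12, edgeR's quasi-likelihood test called 112 higher and 194 lower in recorded mice at an adjusted p under 0.05. Of these, 4 of the higher and 10 of the lower genes reached a mean count of 12 in only the recorded or only the unrecorded mice. The higher genes are 0.899% and the lower genes 1.56% of all genes tested. These are the backgrounds for the counts of list members that edgeR called with all 12 mice. A log2-fold change beyond 1 was reached by 35 of the higher and 76 of the lower genes. The median log2-fold change of all genes was -0.01. At an unadjusted p under 0.05 edgeR gave 1726 of the 12453 genes, the background for list counts at that threshold. DESeq2 called 581 genes, among them all 306 that edgeR called. The count of called genes rose to 496 without VDD2 (154 higher and 342 lower, the background for list counts without that mouse). It rose to 507 without VDD2 and VDS6, and lay between 147 and 254 without any other single mouse. It fell below the 306 by over 1.5 times without VDD4 (147), VDD5 (155), VDD6 (155), VDS4 (172), VDS3 (180), VDS2 (182) or VDS1 (196). In every one of the 12 fits that left out 1 mouse, 110 of the 306 genes were still called, 49 of them higher and 61 lower.

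The 4 genes named with this comparison, Cyp3a11, Ces2a, Csad and Apoa4, did not overlap in CPM between recorded and unrecorded mice. Each was called by edgeR in all 12 fits that left out 1 mouse. In TPM, counts scaled by gene length and library, Cyp3a11 did overlap, at 794 in recorded VDS5 and 932 in unrecorded VDD2. Of all 12453 genes tested, the 7 recorded mice were all above the 5 unrecorded mice for 0.891% and all below them for 0.907%, and these 4 genes were chosen as leading genes of the comparison, so their separation is a description. Cyp3a11 (ENSMUSG00000056035.8, GRCm38 chr5:145854426-145879964, minus strand) encodes the main liver cytochrome P450 of the 3A family, which oxidizes drugs, steroids and bile acids. Its level was 594, 1953 and 1599 CPM in VDD1, VDD2 and VDD3 and 926 and 758 CPM in VDS1 and VDS2. In recorded mice Cyp3a11 was at 5996, 6324 and 5671 CPM in VDD4, VDD5 and VDD6 and at 5983, 4732, 3788 and 4545 CPM in VDS3, VDS4, VDS5 and VDS6. The lowest recorded mouse thus lay above the highest unrecorded mouse, and the means were 5291 ± 941 (SD, n = 7) and 1166 ± 583 CPM (SD, n = 5). The log2-fold change was 2.30 ± 0.25 (SE), a 4.91-fold higher level (adjusted p = 0.000443, edgeR).

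Ces2a (chr8:104734003-104741634, plus strand) encodes a carboxylesterase that cleaves ester drugs and lipid esters. Unrecorded VDD-F1 mice had 108, 92.6 and 131 CPM of Ces2a and unrecorded VDS-F1 mice 180 and 157. Recorded mice had 367, 372 and 372 CPM of Ces2a in VDD-F1 and 466, 395, 402 and 444 in VDS-F1, so the spread within the recorded mice was small beside the gap. Its log2-fold change was 1.55 ± 0.11 (SE, adjusted p = 8.48e-06, edgeR).

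Csad (chr15:102176999-102204724, minus strand) encodes cysteine sulfinic acid decarboxylase, an enzyme of taurine synthesis. Csad was at 79.7, 93.7 and 145 CPM in unrecorded VDD-F1 mice and at 88.3 and 45.9 CPM in unrecorded VDS-F1 mice. It was at 410, 447 and 461 CPM in recorded VDD-F1 mice and at 294, 321, 305 and 351 CPM in recorded VDS-F1 mice. The log2-fold change of Csad was 2.14 ± 0.18 (SE, adjusted p = 3.12e-05, edgeR), and no mouse of either kind came near the other.

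Apoa4 (chr9:46240696-46243459, plus strand) encodes an apolipoprotein of lipid-carrying particles and moved the opposite way. Unrecorded mice had 1289, 1621 and 2928 CPM of Apoa4 in VDD-F1 and 1283 and 833 in VDS-F1. Recorded mice had 157, 161 and 122 CPM in VDD-F1 and 148, 162, 128 and 177 in VDS-F1. Apoa4 was 9.84-fold lower in recorded mice, a log2-fold change of -3.30 ± 0.24 (SE, adjusted p = 8.48e-06, edgeR). Its neighbours on chromosome 9, chosen for their position, were not called. Apoa1, the main protein of high density lipoprotein, had a log2-fold change of -0.37 ± 0.13 (adjusted p = 0.174, edgeR), Apoc3 of -0.12 ± 0.09 (adjusted p = 0.610) and Apoa5 of -0.12 ± 0.14 (adjusted p = 0.778).

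**Figure D1:**
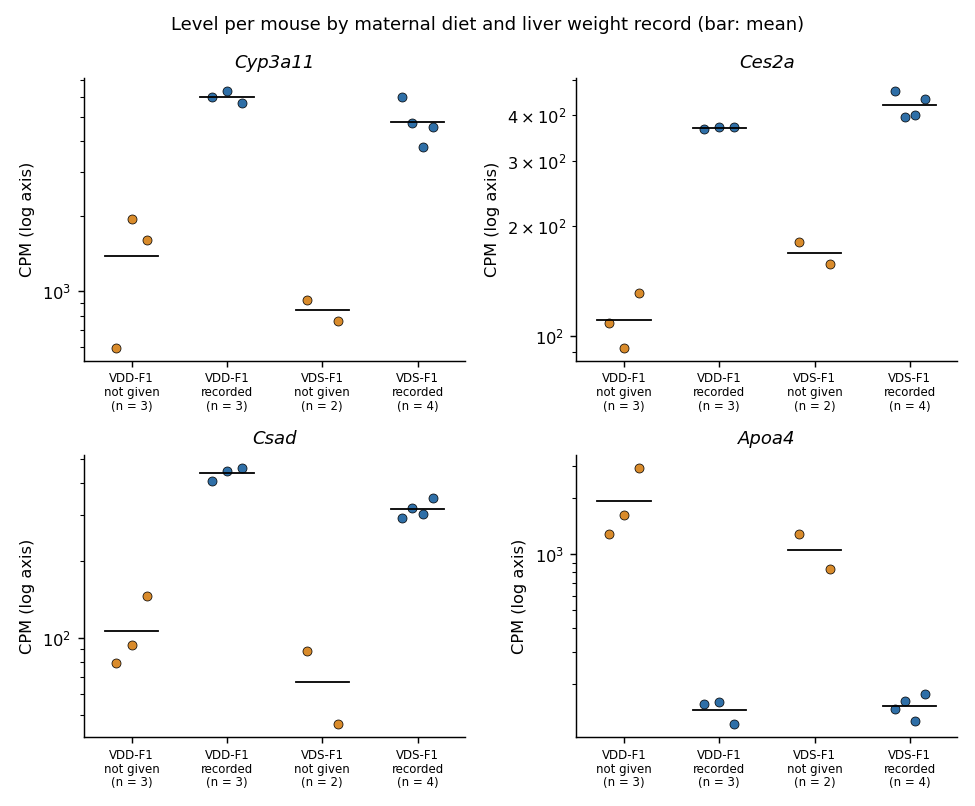
Level of Cyp3a11, Ces2a, Csad and Apoa4 in each of the 12 mice, in CPM on a log axis, by maternal diet and by whether a liver weight was recorded. Points are mice and bars are means; in every panel all 7 recorded mice (blue) lie on 1 side of all 5 unrecorded mice (orange), above them for Cyp3a11, Ces2a and Csad and below them for Apoa4, where recorded mice sit between 122 and 177 CPM.

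Promoters of these genes are shown because several members that differed are known targets of nuclear receptors, which bind copies of the 6 bases AGGTCA or the close form AGTTCA. Capitals mark these letters on either strand in the window from 250 bases before to 50 bases after the RefSeq start, read 5′ to 3′ along the gene (GRCm38.p6). The windows are chr5:145879805-145880104 (minus strand) for Cyp3a11, chr5:146079008-146079307 (plus strand) for its relative Cyp3a59, chr8:104733753-104734052 (plus strand) for Ces2a and chr9:46240594-46240893 (plus strand) for Apoa4.
Cyp3a11: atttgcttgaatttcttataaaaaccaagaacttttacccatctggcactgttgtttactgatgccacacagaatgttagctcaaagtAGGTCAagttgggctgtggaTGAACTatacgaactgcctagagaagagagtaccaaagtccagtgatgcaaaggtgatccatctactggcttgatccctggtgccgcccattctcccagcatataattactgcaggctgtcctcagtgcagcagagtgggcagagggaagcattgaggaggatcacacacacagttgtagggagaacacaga
Cyp3a59: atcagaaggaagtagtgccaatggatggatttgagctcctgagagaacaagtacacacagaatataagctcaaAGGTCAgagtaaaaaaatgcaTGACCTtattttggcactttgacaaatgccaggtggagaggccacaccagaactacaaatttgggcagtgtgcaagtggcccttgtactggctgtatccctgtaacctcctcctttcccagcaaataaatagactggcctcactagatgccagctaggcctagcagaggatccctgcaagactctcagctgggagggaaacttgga
Ces2a: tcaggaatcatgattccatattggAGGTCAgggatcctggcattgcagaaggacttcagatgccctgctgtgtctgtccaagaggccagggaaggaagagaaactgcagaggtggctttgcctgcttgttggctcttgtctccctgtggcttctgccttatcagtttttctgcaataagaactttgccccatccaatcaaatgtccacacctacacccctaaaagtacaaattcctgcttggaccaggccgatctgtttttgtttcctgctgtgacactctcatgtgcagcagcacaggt
Apoa4: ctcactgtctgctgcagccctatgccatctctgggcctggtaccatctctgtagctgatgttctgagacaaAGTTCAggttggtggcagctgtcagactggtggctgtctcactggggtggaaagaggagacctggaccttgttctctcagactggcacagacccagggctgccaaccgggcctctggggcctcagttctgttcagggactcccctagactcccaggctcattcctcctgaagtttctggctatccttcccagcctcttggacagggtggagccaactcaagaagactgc
The Cyp3a11 window holds AGGTCA at -162 and AGTTCA, on the opposite strand, at -142, and the Cyp3a59 window holds AGGTCA at -177 and again, on the opposite strand, at -156. Ces2a has AGGTCA at -226 and Apoa4 has AGTTCA at -179, and neither of the 2 Csad windows on chromosome 15 holds these letters. AGGTCA was found in 6 of 22 Pxr and Car targets with a promoter (27.3%) and in 18.1% of all 27025 genes with one, and AGTTCA in 3 of 22 (13.6%) and in 15.7% of all genes. The search for these 6 bases was chosen after the data had been seen. A pair of AGGTCA copies in the same direction with 4 bases between them was in none of the 22 targets and in 0.0148% of all genes. A pair with 1 base between them was in none of 21 fatty acid oxidation genes and in 0.0481% of all genes. The sterol element TCACCCCA was in 2 of 16 cholesterol genes (12.5%) and in 1.77% of all genes, the E-box CACGTG in 5 of 17 clock genes (29.4%) and in 8.09%, and the D-box TTATGNAA in 2 of 17 clock genes (11.8%) and in 3.99%. A match is a description of the letters only.

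Among known targets of Pxr and Car, 8 of the 23 tested were higher in recorded mice and none was lower, with a median log2-fold change of 0.85 over the 23. The count was 7 to 11 when single mice were left out. The 8 were Cyp3a11, Cyp3a59, Cyp3a25, Cyp2c55, Cyp2b10, Cyp2a5, Gsta2 and Gstm1. Cyp3a59 was at 6.88, 7.83 and 10.7 CPM in unrecorded VDD-F1 mice and at 4.10 and 4.90 in unrecorded VDS-F1 mice, against 28.7, 34.3 and 32.5 in recorded VDD-F1 and 25.2, 27.6, 21.3 and 24.1 in recorded VDS-F1 mice. It had the smallest p-value of all genes that were higher in recorded mice (log2-fold change 2.15 ± 0.15, adjusted p = 8.48e-06, edgeR). Cyp3a25 differed less, by 0.95 ± 0.12 on the log2 scale (adjusted p = 0.00173, edgeR), from 155 to 244 CPM in unrecorded to 293 to 404 CPM in recorded mice. Cyp3a13, the other gene of the family that was tested, had a log2-fold change of -0.06 ± 0.11 (adjusted p = 0.882, edgeR). The Cyp3a genes of the cluster on chromosome 5 are close copies, and only fragments that mapped to 1 place were counted, so the share of each copy is uncertain.

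Cyp2c55, a cytochrome P450 that oxidizes fatty acids, was between 7.78 and 24.9 CPM in recorded mice. It was at 6.37 CPM in VDD2 and between 1.65 and 2.37 CPM in the other unrecorded mice (log2-fold change 2.47 ± 0.28, adjusted p = 0.000598, edgeR). Cyp2a5, the mouse coumarin hydroxylase, was at 139, 162 and 140 CPM in unrecorded and 355, 234 and 271 CPM in recorded VDD-F1 mice, and at 119 and 163 CPM in unrecorded and 348 to 499 CPM in recorded VDS-F1 mice (log2-fold change 1.26 ± 0.16, adjusted p = 0.00169, edgeR). Cyp2b10, the classical Car target, was scarce. It had 4, 34, 1, 0 and 2 counts in VDD1, VDD2, VDD3, VDS1 and VDS2 and 12 to 95 counts in recorded mice. Its mean count reached 12 in recorded mice alone, so it was tested because it was high there, and 7 other targets were called. The receptors themselves were not called. Nr1i2, which encodes Pxr, had a log2-fold change of 0.19 ± 0.16 (adjusted p = 0.665, edgeR) and Nr1i3, which encodes Car, of -0.50 ± 0.37 (adjusted p = 0.618, edgeR).

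Some enzymes of the later steps of detoxification were higher and a few were lower. Of 26 genes of the glutathione system and Nrf2 targets, 7 were higher and 2 lower in recorded mice, with a median of 0.27, and 5 to 10 were higher when single mice were left out. The lower count was 1 without any of VDD4, VDD5, VDD6 or VDS2. Of the 7 higher genes, Gsta2 and Gstm1 are also among the called Pxr and Car targets, so the lists are not independent. Gstm1, a glutathione transferase, was between 1649 and 2398 CPM in recorded and between 723 and 1553 CPM in unrecorded mice (2.01-fold higher, adjusted p = 0.00215, edgeR). Gsta2, an alpha class transferase, was at 39.3 CPM in VDD2, between 3.31 and 8.21 CPM in the other unrecorded mice and between 33.1 and 97.4 CPM in recorded mice, so VDD2 alone overlapped with the recorded mice (log2-fold change 2.76 ± 0.49, adjusted p = 0.00877, edgeR). Gsta4 showed the same placing of VDD2, at 53.7 CPM against 17.4 to 24.4 in the other unrecorded mice and 51.0 to 84.1 in recorded mice. Ephx1, the microsomal epoxide hydrolase, was at 224, 408 and 309 CPM in unrecorded VDD-F1, 165 and 196 CPM in unrecorded VDS-F1 and 515 to 734 CPM in recorded mice (log2-fold change 1.30 ± 0.18, adjusted p = 0.00194, edgeR). Ugdh, which makes the sugar donor of glucuronidation, had a log2-fold change of 0.76 ± 0.11, Gstp1 of 0.98 ± 0.20 and Gsr, glutathione reductase, of 0.33 ± 0.07. The 2 members that were lower, G6pdx (-1.01 ± 0.17, adjusted p = 0.00602, edgeR) and Pgd (-0.68 ± 0.14, adjusted p = 0.0260), are the NADPH-producing enzymes of the pentose phosphate pathway.

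Of 20 sulfotransferases and glucuronosyltransferases, 5 were higher and 2 lower, and 2 were higher without VDD4 or VDS2 and 3 without any of VDD1, VDD5, VDD6, VDS3 or VDS4. The lower count was 0 without VDS1, 3 without VDD2 and 1 without any other mouse. The higher genes all encode Ugt2 enzymes, which join glucuronic acid to steroids and drugs. They were Ugt2a3 (log2-fold change 0.68 ± 0.09), Ugt2b5 (0.77 ± 0.12), Ugt2b35 (0.59 ± 0.12), Ugt2b36 (0.48 ± 0.11) and Ugt2b1 (0.61 ± 0.14). The lower genes were the sulfotransferases Sult1d1 (-0.78 ± 0.15) and Sult1a1 (-0.58 ± 0.13). Of these 7 genes, Ugt2a3 and Ugt2b5 were called in all 12 fits that left out 1 mouse, and Sult1a1 was called in 1, Ugt2b36 in 3 and Ugt2b1 in 4. Among 14 carboxylesterases tested, 4 were higher and none was lower. Ces1b, Ces1e and Ces1f, of the Ces1 cluster on chromosome 8, had log2-fold changes of 1.20 ± 0.18, 0.91 ± 0.20 and 0.79 ± 0.13. The other 3 Ces1 genes tested, Ces1c, Ces1d and Ces1g, were not called and lay between 0.33 and 0.51. The 4 Ces2 genes tested beside Ces2a were not called and lay between -0.34 and 0.40.

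Other leading genes of the same direction include oxidizing and reducing enzymes. Akr1c19, an aldo-keto reductase, was between 60.1 and 80.3 CPM in recorded and between 18.9 and 29.1 CPM in unrecorded mice (log2-fold change 1.45 ± 0.12, adjusted p = 1.91e-05, edgeR). The aldehyde oxidases Aox1 (1.11 ± 0.11, adjusted p = 0.000231, edgeR) and Aox3 (0.84 ± 0.11, adjusted p = 0.00175) were both higher, with no overlap in CPM between recorded and unrecorded mice. Rida, which removes reactive products of amino acid breakdown, was at 328 to 488 CPM in recorded and 227 to 255 CPM in unrecorded mice, and Keg1 at 149 to 217 and 65.9 to 98.1 CPM. In methionine, cysteine and taurine metabolism 3 of 23 genes were higher, Csad, the sulfite oxidase gene Suox (0.47 ± 0.11, adjusted p = 0.0392, edgeR) and the cystathionine gamma-lyase gene Cth (0.68 ± 0.16, adjusted p = 0.0462). The median of the 23 was 0.03, and Suox was called in 3 and Cth in 2 of the 12 fits that left out 1 mouse. The higher count was 1 without any of VDD1, VDD4, VDD5, VDD6, VDS3, VDS4 or VDS6. Without VDD2, 4 of the 23 were called lower and 3 higher, and the median was -0.11.

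Of 22 genes of de novo lipogenesis, which make fatty acids from sugar, 10 were lower and none was higher in recorded mice, 21 of the 22 had a negative log2-fold change and the median was -0.93. Fasn, fatty acid synthase, was at 4174, 1101 and 5264 CPM in VDD1, VDD2 and VDD3 and at 2268 and 5928 CPM in VDS1 and VDS2. In recorded mice Fasn was at 787, 747 and 789 CPM in VDD-F1 and at 1555, 1334, 949 and 1657 CPM in VDS-F1 (log2-fold change -1.90 ± 0.33, adjusted p = 0.00882, edgeR). VDD2 was the only unrecorded mouse within the range of the recorded mice. Acaca, acetyl-CoA carboxylase, which makes the building block for Fasn, was at 503, 188 and 441 CPM in unrecorded VDD-F1, 282 and 405 CPM in unrecorded VDS-F1 and 125 to 164 CPM in recorded mice (log2-fold change -1.35 ± 0.20, adjusted p = 0.00247, edgeR).

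Pnpla3, a lipid droplet enzyme, had the largest change of the 22, and its mean count reached 12 in unrecorded mice alone, so 9 other lipogenic genes were called. It was at 13.4, 0.887 and 7.08 CPM in VDD1, VDD2 and VDD3, at 3.11 and 16.0 CPM in VDS1 and VDS2 and between 0.278 and 1.22 CPM in recorded mice. The desaturases Fads2 (-0.92 ± 0.13) and Fads1 (-0.60 ± 0.11) and the elongases Elovl5 (-0.98 ± 0.18) and Elovl6 (-1.20 ± 0.27) were lower. So were Insig2 (-0.78 ± 0.16), which restrains sterol-regulated transcription, Pklr (-1.72 ± 0.40), the liver pyruvate kinase, and Gpam (-1.32 ± 0.32), which starts triglyceride assembly. Fads2 differed from most of these genes in that VDD2 had its highest level, 1521 CPM, against 402 to 653 CPM in recorded mice. Acly, which supplies cytosolic acetyl-CoA, was not called at -1.08 ± 0.30 (adjusted p = 0.0839, edgeR), nor was the desaturase gene Scd1 at -0.72 ± 0.26 (adjusted p = 0.204). Without VDD2, 15 of the 22 lipogenic genes were called, all lower, and the count was 4 without VDS2, 6 without any of VDD1, VDD4, VDD6, VDS3 or VDS4 and 7 to 9 without any other mouse. The median stayed between -1.01 and -0.81 in these fits.

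None of 24 cholesterol synthesis genes was called by edgeR, with 9 at an unadjusted p under 0.05 and 2 called by DESeq2. Their median log2-fold change was -0.33, and 22 of the 24 were negative. The median was -0.14 without VDD3. Dhcr7 (-0.64 ± 0.20, adjusted p = 0.133, edgeR), Sqle (-1.22 ± 0.38, adjusted p = 0.138) and Fdps (-1.32 ± 0.44, adjusted p = 0.166), which encode enzymes of the pathway, were among the 9. Without VDD2, 8 of the 24 were called, all lower. Of 20 apolipoprotein and lipoprotein assembly genes only Apoa4 was called, and the count was 3 without VDD2 and 2 without VDS6, all lower. Among 30 genes of fatty acid oxidation, ketogenesis and Ppara targets only Fgf21, a fasting hormone, was called, at -1.80 ± 0.43 (adjusted p = 0.0462, edgeR) and in 1 of the 12 fits that left out 1 mouse. The median of the 30 was -0.02, but by diet it was -0.29 among VDD-F1 and 0.28 among VDS-F1 mice. It was -0.14 without VDS1, and 2 of the 30 were called higher without VDD1 and 1 without VDD2. Plin3 (-0.55 ± 0.10, adjusted p = 0.00860, edgeR) was the only called gene of 16 lipid droplet genes. The glucose transporter gene Slc2a2 (-0.90 ± 0.21, adjusted p = 0.0399) was the only one of 27 genes of gluconeogenesis, glycogen and insulin response, and the count was 7, all lower, without VDD2 and 0 without any of VDD1, VDD4, VDD5, VDD6, VDS3, VDS4 or VDS6. Fabp2, a fatty acid-binding protein, was at 48.4 to 51.4 CPM in unrecorded VDD-F1, 29.1 and 40.7 CPM in unrecorded VDS-F1 and 18.4 to 26.5 CPM in recorded mice (log2-fold change -0.92 ± 0.12, adjusted p = 0.00190, edgeR).

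**Figure D2:**
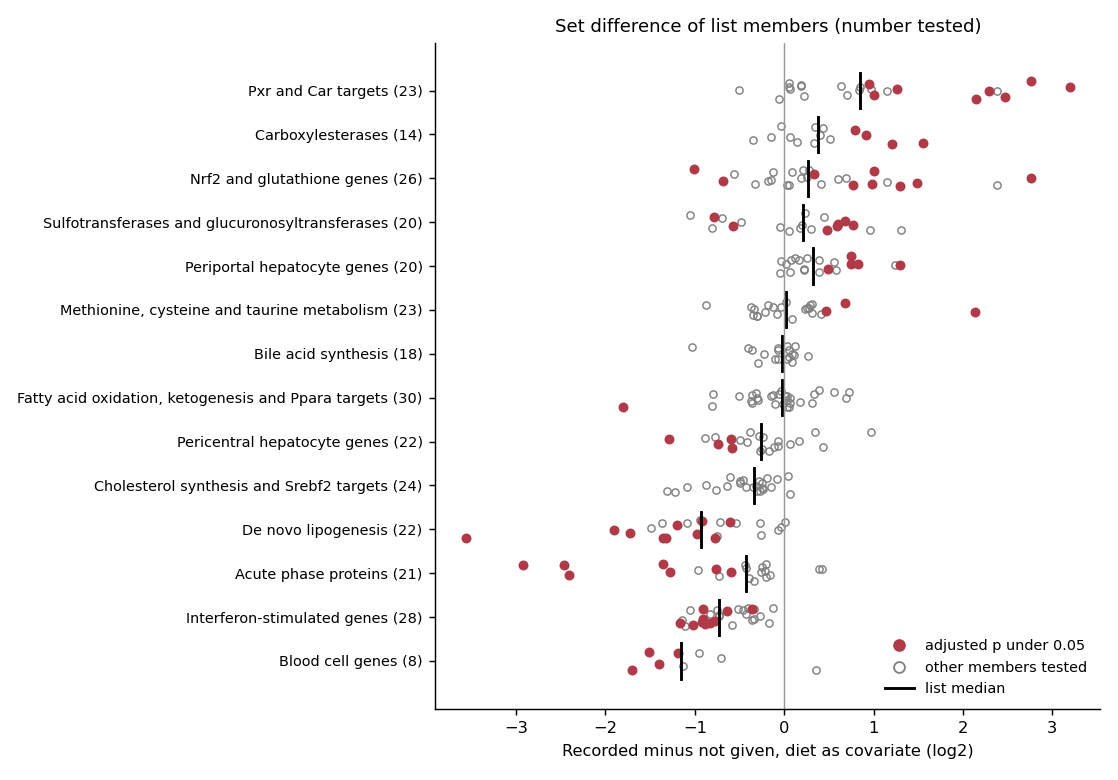
Log2-fold change between recorded and unrecorded mice, with diet as a covariate, for each tested member of 14 gene lists. Points are genes, filled where the adjusted p was under 0.05, and black bars are list medians, which run from 0.85 for Pxr and Car targets to -0.93 for de novo lipogenesis and -1.16 for blood cell genes.

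Of 21 genes of the acute phase response, 7 were lower and none was higher in recorded mice, with a median of -0.43, and 5 to 10 were lower when single mice were left out. Serpina3n, a protease inhibitor, was at 573, 404 and 589 CPM in unrecorded VDD-F1 and 836 and 853 CPM in unrecorded VDS-F1 mice, and at 204 to 385 CPM in recorded mice (log2-fold change -1.28 ± 0.11, adjusted p = 5.15e-05, edgeR). Lcn2, which binds bacterial iron carriers, was at 13.3, 24.6 and 8.28 CPM in VDD1, VDD2 and VDD3, at 23.1 and 40.2 CPM in VDS1 and VDS2 and at 1.03 to 4.27 CPM in recorded mice (log2-fold change -2.92 ± 0.37, adjusted p = 0.00138, edgeR). Hp, haptoglobin, which binds free haemoglobin, was at 2401 to 3563 CPM in unrecorded and 1482 to 1863 CPM in recorded mice, with no overlap (log2-fold change -0.76 ± 0.11, adjusted p = 0.00222, edgeR). Apcs, serum amyloid P, had a log2-fold change of -1.35 ± 0.19 and Steap4, an iron reductase, of -0.59 ± 0.12. Saa1 and Saa2, the other called members, differed between the diets in the size of their change and are described with the interaction. Lrg1, a secreted glycoprotein outside the list, was lower, at -1.13 ± 0.15 (adjusted p = 0.00175, edgeR), with VDD2 at 327 CPM inside the range of recorded mice, 164 to 385 CPM.

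All 28 interferon-stimulated genes tested had a negative log2-fold change, from -1.16 to -0.13 with a median of -0.73, and 10 of them were called lower. Ifit1, which binds foreign RNA, was at 9.53, 10.96 and 9.19 CPM in unrecorded VDD-F1, 18.4 and 11.4 CPM in unrecorded VDS-F1 and 3.21 to 9.16 CPM in recorded mice, where VDS6 was highest (log2-fold change -1.16 ± 0.17, adjusted p = 0.00310, edgeR). Irf7, the regulator of the interferon response, was at 45.2, 57.7 and 26.6 CPM in VDD1, VDD2 and VDD3, at 43.3 CPM in both VDS1 and VDS2 and at 18.0 to 29.8 CPM in recorded mice (log2-fold change -0.89 ± 0.16, adjusted p = 0.0124, edgeR). Ifit3 (-0.91 ± 0.19), Usp18 (-1.03 ± 0.21), Xaf1 (-0.84 ± 0.17) and Parp14 (-0.64 ± 0.13) were also lower. Only Ifit1 and Irf7 of the 10 were called in every fit that left out 1 mouse, and the count was 10 without VDD2, 3 without VDD4, VDD5 or VDS1, 5 without VDD6, VDS3 or VDS4 and 7 to 9 without any other mouse. The number with a negative sign was 27 without VDD2 or VDS1. H2-D1, a class I antigen-presenting molecule, was at 523 to 598 CPM in unrecorded and 326 to 426 CPM in recorded mice, with no overlap (log2-fold change -0.60 ± 0.08, adjusted p = 0.00190, edgeR).

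Globin messenger RNA, which comes from red cells and their precursors, was lower in recorded mice. Hbb-bs was at 337, 337 and 235 CPM in unrecorded VDD-F1, 692 and 389 CPM in unrecorded VDS-F1 and 62.8 to 176 CPM in recorded mice (log2-fold change -1.70 ± 0.29, adjusted p = 0.00671, edgeR). Hba-a1 (-1.51 ± 0.29), Hbb-bt (-1.40 ± 0.29) and Hba-a2 (-1.18 ± 0.25) were lower too, and these 4 were the called genes among 8 blood genes tested of 15 listed. The paired globin genes are near copies, so the split between them is uncertain. Without VDS1 or VDS4, 2 of the 4 were called. The blood list summed to 235 to 494 CPM in recorded and 473 to 1347 CPM in unrecorded mice. Its part in the other differences was not tested. In whole tissue, fewer cells of a type and less RNA per cell cannot be told apart. The haem enzyme gene Alas2 was not called, at a log2-fold change of 0.35 ± 0.16 (adjusted p = 0.324, edgeR).

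Markers of the other liver cells gave 1 call. None of 23 Kupffer cell and macrophage genes was called by edgeR or DESeq2, with 3 at an unadjusted p under 0.05, a median of -0.36 and summed levels of 718 to 905 CPM in recorded and 638 to 1442 CPM in unrecorded mice, where VDD2 was highest. Without VDD2 the median was -0.13, and 16 of the 23 were negative against 22 with it, and 1 gene was called lower without VDS1. None of 24 stellate cell and matrix genes was called by either tool, with 1 at an unadjusted p under 0.05 and summed levels of 736 to 1357 CPM and 691 to 2363 CPM, VDD2 again being highest. Their median went from -0.28 to 0.16 without VDD2, and 1 gene was called lower without VDD1. Of 23 endothelial genes Tie1, a vascular receptor, was higher (0.66 ± 0.14, adjusted p = 0.0260, edgeR), though not without any of VDD3, VDD4, VDD5, VDD6, VDS1 or VDS3, and the list summed to 862 to 1096 CPM in recorded and 663 to 973 CPM in unrecorded mice. No lymphocyte, cholangiocyte, dendritic or proliferation gene was called by edgeR or DESeq2, with 1 of 6, 0 of 10, 0 of 10 and 1 of 23 at an unadjusted p under 0.05. Without VDD2 their medians changed sign, from -0.39 to 0.13, -0.09 to 0.25, -0.25 to 0.31 and -0.30 to 0.82 in that order. A lymphocyte gene was called lower without VDD2 or VDD3 and a proliferation gene higher without VDD2, by 1 call each. The lymphocyte genes Cd3e and Nkg7 were at 0 in at least 1 library and reached 4.04 and 1.61 CPM.

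Genes that mark the 2 ends of the liver lobule were examined next. Of 20 periportal genes, expressed where blood enters, 5 were higher and none was lower, with a median of 0.32. The called genes were Etnppl (1.30 ± 0.20), Cyp2f2 (0.75 ± 0.12), the glutaminase gene Gls2 (0.75 ± 0.14), Igfals (0.49 ± 0.11) and the histidine ammonia-lyase gene Hal (0.83 ± 0.19). The count was 3 without any of VDD1, VDD4, VDD5, VDS1, VDS2, VDS3 or VDS4. Etnppl, which breaks down phosphoethanolamine, was at 113 to 192 CPM in unrecorded VDD-F1, 412 to 506 CPM in recorded VDD-F1, 108 and 120 CPM in unrecorded VDS-F1 and 155 to 286 CPM in recorded VDS-F1 mice (adjusted p = 0.00336, edgeR). Of 22 pericentral genes, expressed where blood leaves, 4 were lower and none was higher, with a median of -0.26. Taken by diet, the pericentral median was -0.45 among VDD-F1 but -0.05 among VDS-F1 offspring, and the periportal median 0.41 and 0.19. In VDS-F1 the summed levels ran the other way, with pericentral genes at 15370 to 18710 CPM in recorded and 13790 and 14390 CPM in unrecorded mice and periportal genes at 71040 to 81110 CPM in recorded and 83500 CPM in both unrecorded mice. Gulo, the last enzyme of vitamin C synthesis, was at 426 to 603 CPM in unrecorded and 254 to 402 CPM in recorded mice, with no overlap (log2-fold change -0.74 ± 0.08, adjusted p = 0.000605, edgeR). Glul, glutamine synthetase, was at 1309, 392 and 1568 CPM in VDD1, VDD2 and VDD3 and at 261 to 313 CPM in recorded VDD-F1 mice, but at 1477 and 1321 CPM in unrecorded and 918 to 1014 CPM in recorded VDS-F1 mice. Its log2-fold change of -1.29 ± 0.32 lay at the threshold (adjusted p = 0.0499, edgeR) and was called in 1 of the 12 fits that left out 1 mouse. Lect2 (-0.58 ± 0.13) and Ahr (-0.59 ± 0.14), the dioxin receptor, were the other called pericentral genes. The count of lower pericentral genes was 1 without any of VDD1, VDD3, VDD4, VDD6, VDS2 or VDS3 and 2 without any of VDD5, VDS1, VDS4 or VDS6, and Gulo was the only gene of the list called in every fit that left out 1 mouse.

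**Figure D3:**
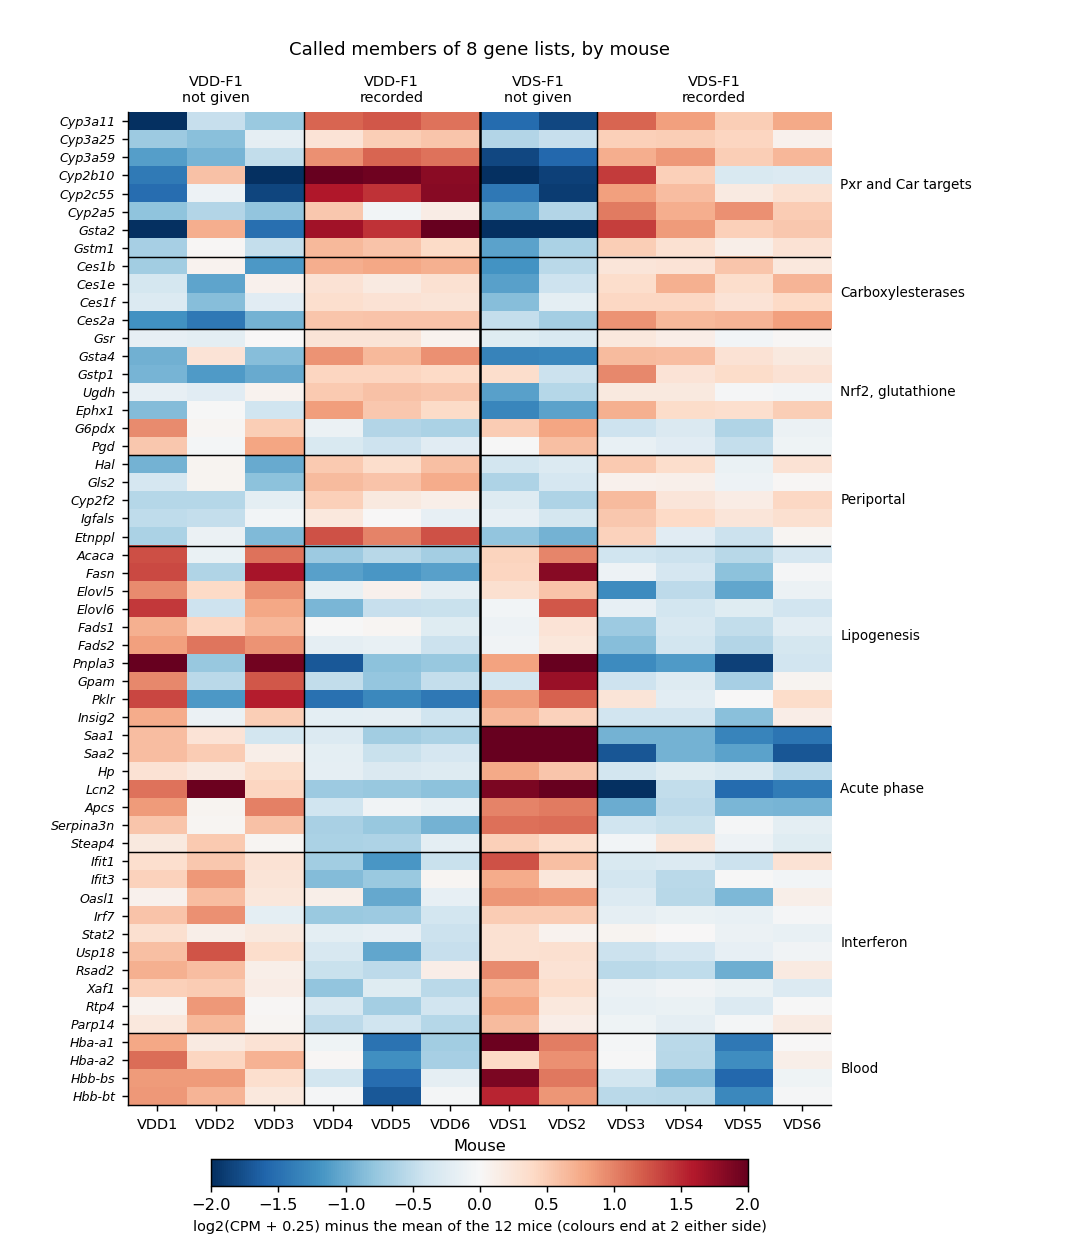
Level of the 55 called members of 8 gene lists in each mouse, as log2(CPM + 0.25) minus the gene's mean over the 12 mice, with a gene of several lists drawn once. Red is above and blue below the mean; the Pxr and Car, carboxylesterase and periportal rows are mostly blue in unrecorded and red in recorded mice of both diets, the lipogenic, acute phase, interferon and globin rows run the other way, and VDD2 is below VDD1 and VDD3 in the lipogenic rows other than Fads2. Columns headed not given hold the unrecorded mice.

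Some single genes had large differences outside these lists. Moxd1, a monooxygenase of the dopamine beta-hydroxylase family, was at 90.8 and 79.4 CPM in VDS1 and VDS2 and at 1.14 to 1.66 CPM in the recorded VDS-F1 mice. In VDD-F1 it was scarce in all mice, with 70, 1 and 23 counts in VDD1, VDD2 and VDD3 and 0, 0 and 1 count in VDD4, VDD5 and VDD6. Its adjusted p was 4.97e-05 (edgeR), and it was also lower in VDD-F1 than in VDS-F1 mice in the same fit (adjusted p = 0.00243, edgeR). Cyp17a1, which makes androgen precursors, was the only called gene of 8 tested female-biased genes, at 22.5 to 62.2 CPM in unrecorded and 1.86 to 21.5 CPM in recorded mice (log2-fold change -2.06 ± 0.34, adjusted p = 0.00629, edgeR). Of 28 male-biased genes Ugt2b1 and Gstp1 were higher, and both are also among the transferase or glutathione genes called above. The higher count was 0 without any of VDD3, VDD4, VDD5, VDD6 or VDS2, 1 without VDD1, VDS3 or VDS4 and 4 without VDS1. Without VDD2, 5 of the 28 were called lower and 2 higher, and the median went from 0.01 to -0.15. Obp2a, a lipocalin, had 2, 0, 0, 0 and 2 counts in the unrecorded mice and 7 to 46 counts in the recorded mice. It was tested because it was high in recorded mice, where alone its mean count reached 12, and no other gene of the 15 glucocorticoid targets was called. Arsg, a lysosomal sulfatase, was at 31.6 to 38.6 CPM in unrecorded and 11.7 to 22.8 CPM in recorded mice (log2-fold change -0.98 ± 0.12, adjusted p = 0.00119, edgeR), and Tbc1d31 at 10.4 to 17.3 and 5.22 to 8.03 CPM (-1.09 ± 0.15, adjusted p = 0.00190).

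Several other programs of the liver gave few or no calls with all 12 mice. None of 18 bile acid synthesis genes was called by edgeR or DESeq2, with 3 at an unadjusted p under 0.05 and a median of -0.02. None of 19 genes of bile acid sensing and transport was called by edgeR (3 at an unadjusted p under 0.05, 1 called by DESeq2). None of 20 clock genes was called by edgeR, with 2 at an unadjusted p under 0.05 and 1 called by DESeq2. Per2 had a log2-fold change of -0.79 ± 0.25 (adjusted p = 0.136, edgeR) and Cry2, the other gene at the top of that list, of -0.35 ± 0.11 (adjusted p = 0.144). Klf6 was the only called gene of 20 immediate early genes (-0.75 ± 0.18, adjusted p = 0.0481, edgeR), and it was called in 1 of the 12 fits that left out 1 mouse, the one without VDD1. None of 18 heat shock genes and 24 genes of endoplasmic reticulum stress was called by edgeR or DESeq2, with 6 and 3 at an unadjusted p under 0.05. None of 9 genes of vitamin D metabolism was called by edgeR, with 1 at an unadjusted p under 0.05 and 1 called by DESeq2. The same held for 9 metallothionein and zinc transporter genes (3 and 1) and 18 iron genes (7 and 3). None of 12 mitochondrial messenger RNAs was called by either tool, with 0 at an unadjusted p under 0.05, and of 9 structural RNAs Rmrp was lower (-0.63 ± 0.15, adjusted p = 0.0489, edgeR) and was called in 2 of the 12 fits that left out 1 mouse. Single mice also moved lists with no call. Without VDD2, 1 bile acid synthesis gene, 2 bile acid transport genes and 1 vitamin D gene were called lower, 1 metallothionein or transporter gene and 1 iron gene were called higher, and the bile acid synthesis median was -0.14. Without VDD3, 1 bile acid transport gene was higher and 1 metallothionein or transporter gene lower, and without VDS6, 1 iron gene was lower. Among the lists described above, 1 acute phase gene was called higher without VDD1, 1 pericentral and 1 female-biased gene higher without VDD2, 1 glucocorticoid target lower without VDD3 and 1 carboxylesterase gene lower without VDS6, and 2 endothelial genes were higher without VDD2.

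Each diet was then examined alone, since the 2 contrasts share no mouse. Among VDD-F1 mice (3 against 3) edgeR called 38 genes, or 0.305% of those tested, and among VDS-F1 mice (4 against 2) 194 genes, or 1.56%. Of the 194 genes called in VDS-F1, 157 (80.9%) had the same direction in VDD-F1, and 89 of them also had an unadjusted p under 0.05 there, against 8 of the opposite direction. Of the 38 called in VDD-F1, 34 (89.5%) had the same direction in VDS-F1. Over all 12453 genes 55.2% had the same direction in both, and 1365 had an unadjusted p under 0.05 in VDD-F1 by edgeR. The log2-fold changes of the 2 diets correlated at r = 0.636 over the 194 genes, 0.663 over the 38 and 0.213 over all genes, where genes are not independent. The 9 genes called in each diet alone included Apoa4, Ces2a, Csad and Cyp3a59. Cyp3a11 had a log2-fold change of 2.12 ± 0.39 in VDD-F1 (adjusted p = 0.106, edgeR) and of 2.50 ± 0.19 in VDS-F1 (adjusted p = 0.000258). Apoa4 had -3.73 ± 0.33 (adjusted p = 0.0111, edgeR) and -2.78 ± 0.17 (adjusted p = 9.64e-05). The count in VDD-F1 went to 985 without VDD2 and to 1, 9, 0, 0 and 0 without VDD1, VDD3, VDD4, VDD5 and VDD6, where edgeR still gave 1050, 906 and 922 genes at an unadjusted p under 0.05 for the last 3. The count in VDS-F1 was 105, 78 and 101 without VDS1, VDS3 and VDS4.

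**Figure D4:**
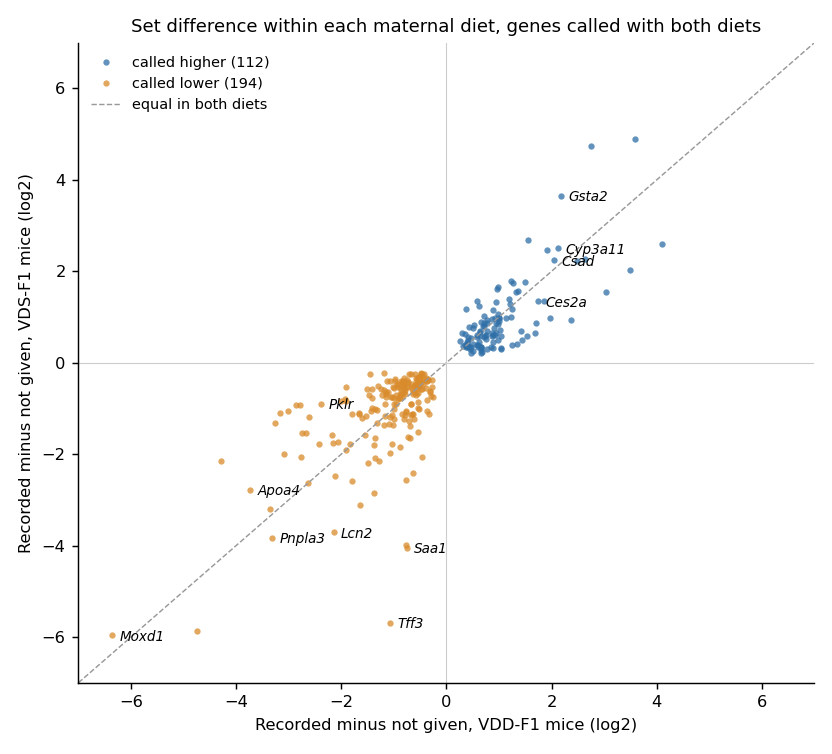
Log2-fold change between recorded and unrecorded mice in VDD-F1 (horizontal axis) and in VDS-F1 (vertical axis) for the 306 genes called with both diets together. Points are genes, blue where called higher and orange where called lower, and the dashed line marks equal changes; the genes were chosen on both diets, so their shared direction is given by the choice, while Saa1 (-0.76 and -4.05) and Tff3 (-1.07 and -5.69) lie far from the line.

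The difference between recorded and unrecorded mice itself differed between the diets for 11 genes by edgeR's interaction test, 0.0883% of those tested. Saa1 and Saa2 encode serum amyloid A, a plasma protein of strong inflammation. Saa1 was at 225 and 279 CPM in unrecorded VDS-F1 and 12.2 to 17.5 CPM in recorded VDS-F1 mice, but at 51.8, 40.8 and 26.1 CPM in unrecorded and 27.9, 20.8 and 21.7 CPM in recorded VDD-F1 mice. The difference was thus -4.05 on the log2 scale in VDS-F1 and -0.76 in VDD-F1, and these differed by 3.30 ± 0.32 (SE, adjusted p = 0.00151, edgeR). Saa2, a near copy of Saa1 with which the split of fragments is uncertain, had -3.98 and -0.76 (interaction adjusted p = 0.00151, edgeR). Tff3, a secreted trefoil peptide, was at 43.4 and 55.6 CPM in unrecorded and 0.364 to 1.86 CPM in recorded VDS-F1 mice, against 24.8, 43.8 and 14.0 CPM and 10.6, 13.8 and 15.1 CPM in VDD-F1 (interaction 4.62 ± 0.62, adjusted p = 0.0109, edgeR).

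For several of these genes the direction was opposite in the 2 diets. Fst, follistatin, a secreted inhibitor of activin, was at 13.8 and 16.5 CPM in unrecorded and 1.25 to 2.79 CPM in recorded VDS-F1 mice, but at 2.97 to 5.12 CPM in unrecorded and 5.46 to 7.96 CPM in recorded VDD-F1 mice (interaction 4.11 ± 0.45, adjusted p = 0.00244, edgeR). Serpina1e, an alpha-1-antitrypsin gene, was at 2138 to 3356 CPM in unrecorded and 11454 to 13399 CPM in recorded VDD-F1 mice, while unrecorded VDS-F1 mice, at 5446 and 6138 CPM, lay close to the recorded ones, at 5725 to 8422 CPM (interaction 2.07 ± 0.27, adjusted p = 0.0109, edgeR). Serpina1e has close copies in its cluster, so its share of the fragments is uncertain. Sik1, Sgk1, Zfp36, Tns2 and Acot2 are named beside these because they passed the same test. Sik1, a kinase induced by cyclic AMP signals, was at 18.6, 44.7 and 27.6 CPM in unrecorded and 101, 99.5 and 54.8 CPM in recorded VDD-F1 mice, and at 124 and 90.3 CPM in unrecorded and 22.7 to 43.0 CPM in recorded VDS-F1 mice (interaction 3.21 ± 0.45, adjusted p = 0.0156, edgeR). The kinase gene Sgk1 (2.77 ± 0.44, adjusted p = 0.0321, edgeR) and Zfp36, which destabilizes inflammatory messages (1.38 ± 0.21, adjusted p = 0.0265), had the same pattern. Tns2 (-1.29 ± 0.17, adjusted p = 0.0109, edgeR) and the acyl-CoA thioesterase gene Acot2 (-2.34 ± 0.35, adjusted p = 0.0265) had the opposite one. The count of 11 was 334 without VDD2, 25 without VDS6, 17 without VDD1, 7 without VDD3 or VDD4, 6 without VDS1 or VDS3 and 3 without VDD5.

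**Figure D5:**
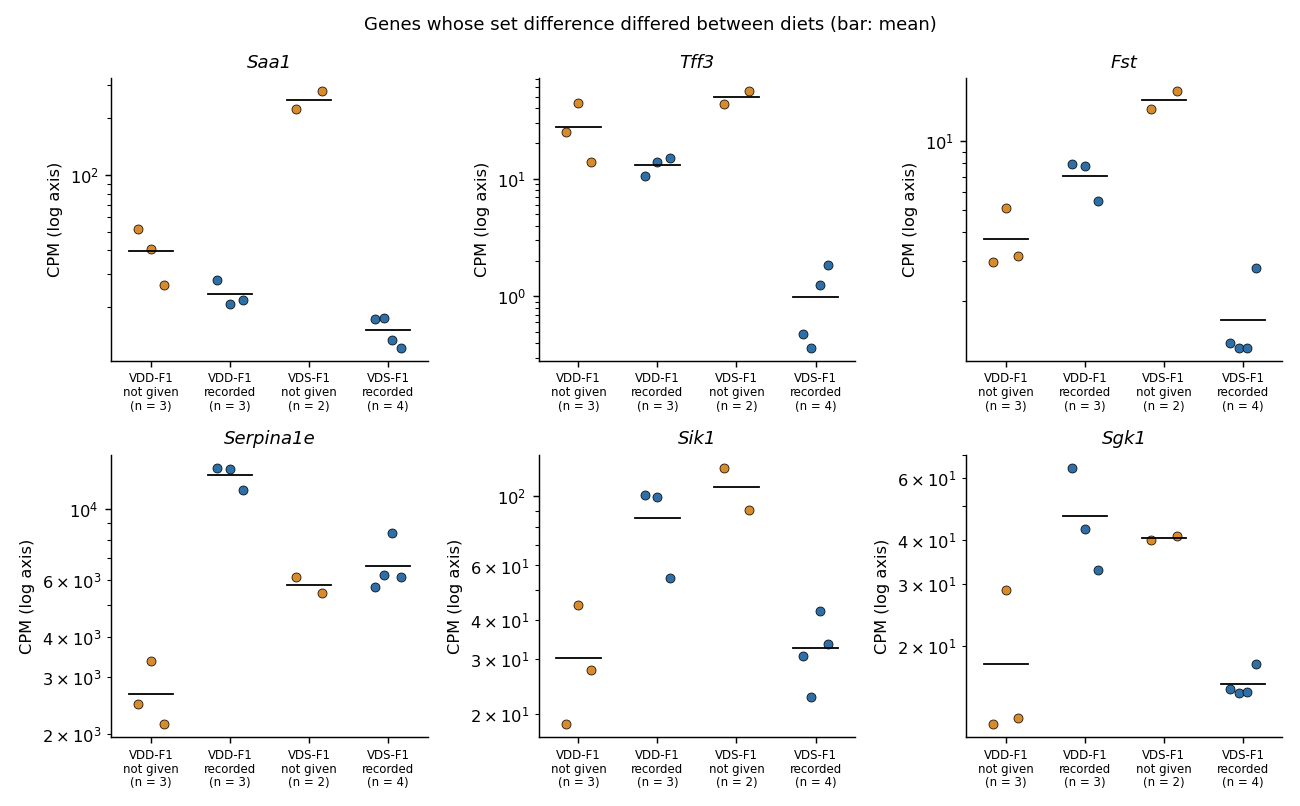
Level of Saa1, Tff3, Fst, Serpina1e, Sik1 and Sgk1 in each of the 12 mice, in CPM on a log axis, by maternal diet and liver weight record. Points are mice and bars are means; for Saa1 unrecorded VDS-F1 mice (225 and 279 CPM) stand above all others, for Serpina1e recorded VDD-F1 mice do, and for Sik1 and Sgk1 the recorded mice are higher in VDD-F1 and lower in VDS-F1.

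In the same fit the maternal diet term, with recorded and unrecorded mice allowed to differ, called 28 genes (15 higher and 13 lower in VDD-F1), which is 0.225% of those tested, against 306 for the difference between recorded and unrecorded mice. Of those 306 genes, 7 were also called for diet. Cyp3a11 had a diet log2-fold change of 0.49 (adjusted p = 0.301, edgeR), Ces2a of -0.37 (adjusted p = 0.104), Csad of 0.55 (adjusted p = 0.121) and Apoa4 of 0.32 (adjusted p = 0.517). Without a term for the liver weight record the diet comparison called 5 genes. The diet count rested on single mice. It was 593, 88 and 316 without VDD1, VDD2 and VDD3, 2 without VDS6 and 1 without any of VDD4, VDD5, VDD6, VDS1, VDS3, VDS4 or VDS5. DESeq2 called 618 genes for diet and 581 for the difference between recorded and unrecorded mice, and voom called 737 and 348. At an unadjusted p under 0.05 edgeR gave 2111 genes for diet and 1726 for that difference. Without VDD1 edgeR called 593 and 233 genes in that order, and without VDD3 316 and 217. Which count was larger thus depended on the tool, the threshold and the mice used.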

How the data were processed

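RNA-seq libraries of 12 livers, 1 per mouse, were analysed. Per the labels and the study's methods, the authors prepared ribosome-depleted, stranded, paired libraries and aligned the reads with STAR to mm10 (GRCm38; the STAR version is not given in the sources used here). The deposited values are raw counts of fragments per gene, not normalized, with 1 count that ignores strand and 1 for each strand, and only uniquely mapped fragments are counted. The reverse-strand count (column 4) was used, since it held most of the stranded fragments in every library. Mice were split by whether the study's supplement gives a liver weight, which the labels do not state. Gene positions came from GENCODE M21 on GRCm38, and 52489 of 52636 gene IDs matched.

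Genes whose mean count reached 12 were tested by the legacy form of edgeR's quasi-likelihood test (version 4.0.16, R 4.3.3), with diet as covariate. Libraries were scaled by TMM, and p-values were adjusted by Benjamini-Hochberg over all genes. Log2-fold changes used edgeR's default prior count, and a prior count of 2 was used only for the log2 CPM correlated between mice. A gene was called at an adjusted p under 0.05. The SE given with a log2-fold change is its absolute size divided by the square root of edgeR's F statistic. CPM are TMM-scaled, except summed lists and cell markers, which use plain CPM. Library measures were compared by exact permutation within diet. The low counts of genes near the filter limit the precision of their fold changes. Alternatives were DESeq2 1.42.0, voom with quality weights in limma 3.58.1, other size factors, filters, strand and covariates, and each mouse left out. Leaving out VDD2 and VDS6 together was added after the data had been seen. The replicate numbers do not pair the mice. The 38 gene lists and the members named were chosen with earlier results of these data known, so they are a description. Named genes are the 4 leading genes, the 10 smallest p-values in each direction, up to 4 per list and 5 for the interaction, to which further called members and neighbours were added after their values were seen. On simulated data with 200 changed genes among 12453, edgeR found 89 of 100 with a large and 55 of 100 with a small change, with 5 false calls. The simulation drew each gene independently and held no outlying mouse, so these rates need not hold for the 12 livers. Promoters are from RefSeq (GRCm38.p6). Python 3.11.15 with pandas 2.3.3, NumPy 2.4.6, SciPy 1.17.1 and matplotlib 3.10.9 was used for tables and figures.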

Additional observations from a re-analysis of the deposited data

Results flagged for a closer look

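Among 214 pairs of a named gene with the recorded or the unrecorded mice, 15 had a mouse farther from the others than Dixon's 95% limit. Chance gives about 1 in 20, so the 15 are not far above the number it would give. The pairs share mice and are not independent, and each mixes mice of both diets. In 7 of them, Cyp2c55, Gsta2, Cyp2b10, Gsta4, Apcs, Glul and Usp18, the mouse was the unrecorded VDD2. VDD2 was above the other 4 unrecorded mice for Cyp2c55 (6.37 CPM against 1.65 to 2.37), Gsta2 (39.3 against 3.31 to 8.21), Cyp2b10 (1.77 against 0 to 0.253), Gsta4 (53.7 against 17.4 to 24.4) and Usp18 (17.2 CPM). It was below them for Apcs (46.0 against 79.7 to 90.7 CPM) and Glul (392 against 1309 to 1568 CPM). The unrecorded VDS1 was highest for Ifit1 (18.4 CPM) and Cyp3a13 (179.8 CPM) and lowest for Plin3 (38.0 CPM). Among recorded mice, VDS6 was lowest for Ugt2b36 (268 CPM) and highest for Dhcr7 (182 CPM) and Fdps (5.94 CPM), VDS3 was highest for Gstp1 (1864 CPM) and VDD5 for Fgf21 (4.79 CPM).

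The difference between recorded and unrecorded mice was not the same in the 2 diets for 10 named genes by edgeR's interaction test. The difference in VDD-F1 minus that in VDS-F1, on the log2 scale, was 3.30 for Saa1, 3.22 for Saa2, 4.62 for Tff3, 4.11 for Fst, 2.07 for Serpina1e, 3.21 for Sik1, 2.77 for Sgk1, 1.38 for Zfp36, -1.29 for Tns2 and -2.34 for Acot2.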

How the results depend on the processing

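The 306 calls for the difference between recorded and unrecorded mice became 581 with DESeq2, 555 without a filter on low counts, 174 without the diet term, 507 without VDD2 and VDS6, 38 in VDD-F1 alone and 194 in VDS-F1 alone, and 147 to 496 without single mice. It stayed within 1.5 times of 306, at 277 to 348, with voom, DESeq2 size factors, the newer or robust fit, the other filters, unstranded counts and the interaction in the fit. The 28 diet calls became 618 with DESeq2, 737 with voom, 67 with the newer fit, 16 with the robust prior, 60 with a total count of at least 12, 806 without a filter, 5 without a term for the liver weight record, 56 with the interaction in the fit, 44 without VDD2 and VDS6 and 1 to 593 without single mice. The 11 interaction calls became 138 with DESeq2, 62 with voom, 17 with the newer fit, 368 without a filter, 484 without VDD2 and VDS6 and 3 to 334 without single mice. In VDD-F1 alone the 38 calls became 381 with DESeq2, 434 with voom, 433 without a filter, 985 without VDD2 and 0 to 985 without single mice. In VDS-F1 alone the 194 became 459 with DESeq2, 746 without a filter and 78 to 276 without single mice, where a lone unrecorded mouse is assumed to vary like the rest. The causes were not tested.

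With the replicate block edgeR called 0 genes for the recorded mice (671 at an unadjusted p under 0.05), 13 for diet and 2 for the interaction. Under this block the difference rests on number 3 alone, the one number that holds a mouse of each kind, and DESeq2 was not run with it. Deviations of mice with the same number correlated at -0.114 to 0.0576, and number 5 alone correlated best with its own, so the numbers do not pair the mice.

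Of 2698 values of named genes under these settings, 2185 kept direction and call, 483 lost and 24 gained a call. The 6 that changed sign, none of them called, were Apoa5 (0.22), Nr1i3 (0.37) and Alas2 (-0.10) in VDS-F1 alone and Cyp3a13 in VDD-F1 alone (0.22), without VDS1 (0.10, in a range from -0.11 to 0.10 without single mice) and with the replicate block (0.0037). The difference in fragments on genes changed sign without VDD4 (236100 more in recorded mice) and VDS1 (268800 more), in a range from -1518000 to 268800 without single mice. Depth limits genes of few counts, such as Obp2a and Cyp2b10.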
